A study of Ovis aries with 54 samples.

Results

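Lung pieces from sheep lobes treated with porcine elastase together with lipopolysaccharide (PE/LPS) were compared with lung pieces from other sheep, labelled only as control. Pieces were chosen by the treatment in the labels, and they are 11 of the 18 pieces of the series and 33 of its 54 libraries. The 7 PE/LPS pieces came from sheep 1, 2, 8, 11, 14, 15 and 16. The 4 control pieces came from other animals, sheep 7, 9, 10 and 18, so that no sheep is in both groups. The 7 saline pieces, which carry the sheep numbers of the PE/LPS pieces, were left out. Each piece was sequenced as 3 libraries of poly(A)-primed total RNA, and the counts of the 3 libraries were summed, so that a piece of 1 sheep is the unit of replication.

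The sample titles also carry letter codes whose meaning the labels do not give. All 7 PE/LPS pieces have the letters LC. Of the 4 controls, sheep 10 and 18 have LC, and sheep 7 and 9 have RA, so that exposure and code are partly joined. The 2 LC controls served as a code-matched check. The labels give no dose, route, interval since exposure, age or breed, and they name the material only as tissue. SFTPC, which encodes the surfactant protein that marks alveolar type 2 cells, was at 2766 counts per 1000000 mapped to genes (CPM) or more in all 11 pieces, as lung parenchyma has it.

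Porcine pancreatic elastase cuts elastin, the fibre that lets alveolar walls recoil, and is used in animals to enlarge the airspaces as emphysema does. Lipopolysaccharide is the outer membrane lipid of Gram-negative bacteria. It is bound by CD14 and by the receptor TLR4 with its partner LY96, and it acts through NF-kB on the genes of TNF, IL1B, IL6 and CXCL8, the last of which draws neutrophils. Neutrophil and macrophage proteases, among them ELANE and MMP12, and their inhibitors, among them SERPINA1, are the balance on which accounts of emphysema in chronic obstructive pulmonary disease rest.

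PE/LPS pieces held 9653262 to 37777824 counts, against 23106036 to 41946705 in control pieces. A single library of PE/LPS sheep 11 had 115109 counts, and leaving it out gave 128 genes higher and 104 lower at an unadjusted p under 0.05, against 129 and 105 with it. Total counts, genes detected, the share of the top 100 genes, and the shares of mitochondrial and ribosomal protein counts did not differ between the groups by exact two-sided permutation tests, with adjusted p of 0.741 to 0.861 over the 6 measures (smallest unadjusted p that 330 arrangements allow, 0.00303). The PE/LPS pieces of sheep 2, 8 and 11 stood apart, at 49.3, 35.9 and 49.7 on the first principal component, against −35.4 to −21.1 in the other PE/LPS pieces and −34.1 to 8.32 in controls. These 3 and control sheep 9 have longer codes in their titles, LC4B, LC3, LC3 and RA4. Values without these 4 pieces, which leave 4 PE/LPS and 3 control sheep, are given beside the results as values for the plain codes.

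**Figure D1:**
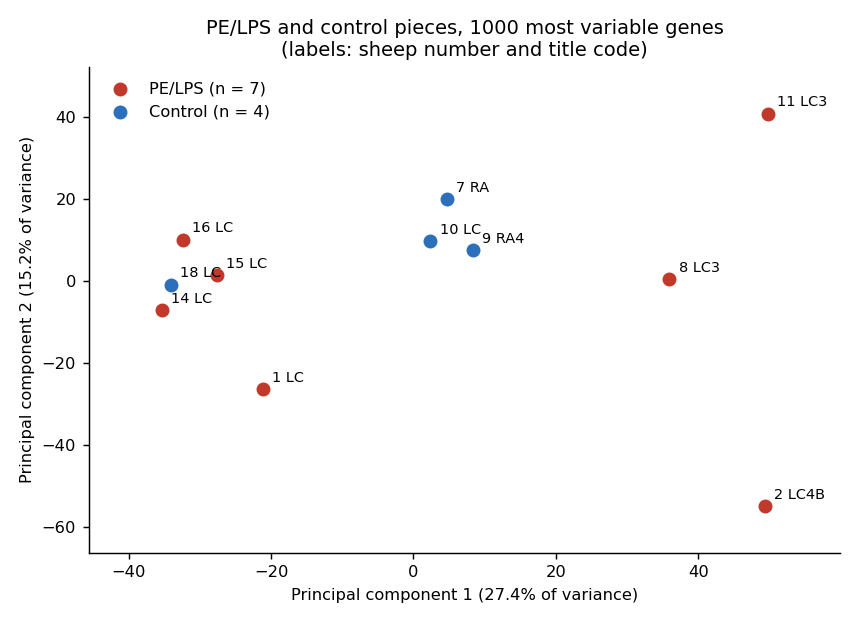
First and second principal components of log2 CPM over the 1000 most variable genes, 1 point per piece, labelled with sheep number and title code. The PE/LPS pieces of sheep 2, 8 and 11 lie at 35.9 to 49.7 on the first component, the other 4 PE/LPS pieces at −35.4 to −21.1, and the 4 controls between −34.1 and 8.32.

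No gene passed the test. Of 18340 genes, 0 (0%) had an adjusted p under 0.05 in the quasi-likelihood test of edgeR after Benjamini-Hochberg correction, and the smallest adjusted p was 0.999935. DESeq2 called 0 genes with a smallest adjusted p of 0.104, and limma voom called 0. Before adjustment, p was under 0.05 by edgeR in 129 genes higher in PE/LPS pieces (0.703%) and 105 lower (0.573%). Without any true difference, a share of 0.05 of genes, both sides together, would reach that threshold on average. The 2 edgeR shares seen were together below that share. DESeq2 gave 244 higher and 147 lower, and voom gave 87 higher and 211 lower. Against the 2 LC controls alone, edgeR called 0 genes (0%), with 168 higher (0.916%) and 96 lower (0.523%) at that unadjusted threshold. The 2 comparisons share the 7 PE/LPS pieces and 2 controls, so each gives its own values only. All genes named below therefore failed the adjusted test, and their folds describe these 11 animals.

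The 95% interval of a log2 fold change (PE/LPS minus control, as throughout) reached 0.855 to either side at the median gene, and 0.668 over the 9693 genes with a mean of at least 10 CPM. For 7630 genes (41.6%) the whole interval lay within ±1, so that a change of more than 1 log2 unit lay outside it. For 14395 genes (78.5%) it lay within ±2. Fitted log2 fold changes were beyond 1 for 750 genes on the higher side and 446 on the lower side. The standard deviation of log2 CPM had a median over genes of 0.697 among the 7 PE/LPS pieces and 0.549 among the 4 controls. Among the 4 PE/LPS pieces with plain codes it was 0.520.

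**Figure D2:**
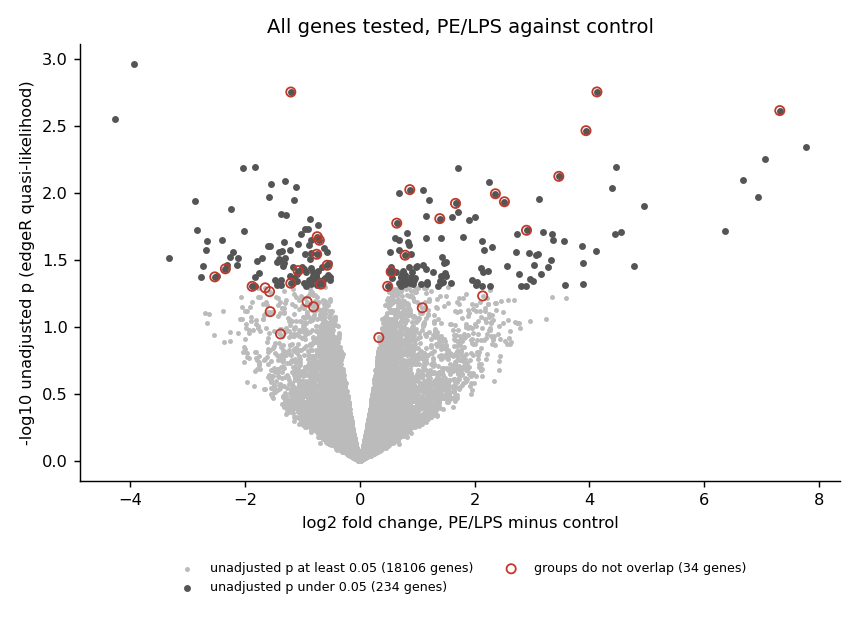
Log2 fold change of PE/LPS minus control against −log10 of edgeR's unadjusted p for 18340 genes. Dark points are the 234 genes with an unadjusted p under 0.05, red rings are the 34 genes whose groups do not overlap, and no gene passed the adjusted test.

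In 17 genes every PE/LPS piece was above every control piece (0.0927% of genes tested). In 17 others every PE/LPS piece was below every control piece (0.0927%). With all 330 arrangements of the labels equally likely, a share of 0.00303 of genes would separate on each side on average. The share seen on each side was below that, so separation alone did not set these genes apart from random labels. Without scaling by the trimmed mean of M values (TMM) the numbers of separated genes were 15 higher and 13 lower. Only 9 of the 17 higher and 9 of the 17 lower genes were still separate. RAPGEF1, TLR9, MADD, ADAMTS20, KIFC1, PFKM, MIOX and B4GALT4, named here or below, overlapped then. The higher genes with a symbol included RAPGEF1, an exchange factor that activates the small GTPase RAP1, TLR9, the endosomal receptor for unmethylated CpG DNA, TRPM4, a calcium-activated cation channel, MADD, a regulator of RAB3 GTPases, and SHISA3. The lower ones included KIFC1, a minus-end kinesin of the spindle, PFKM, the muscle isoform of phosphofructokinase, MIOX, which oxidises myo-inositol, and B4GALT4, a galactosyltransferase. Several of these were taken for mention after their values were seen, because their groups did not overlap.

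RAPGEF1 had 31, 49.6 and 87.8 CPM as the lowest, median and highest PE/LPS piece, against 25.4, 27.9, 30.4 and 30.8 CPM in the controls of sheep 7, 9, 10 and 18. The controls lay within a few CPM of each other, and the lowest PE/LPS piece, of sheep 1, was just above the highest of them after TMM scaling and not without it. Its log2 fold change was 0.87 ± 0.29 (SE), and 0.45 in the plain codes. TRPM4 ran from 16.0 through a median of 17.7 to 29.8 CPM in PE/LPS pieces, against 13.5, 12.8, 14.0 and 13.6 CPM in those 4 controls. Here too the controls were tightly grouped and the PE/LPS pieces all higher, with a log2 fold change of 0.55 ± 0.24 (SE). MADD, at 4.89 to 11.3 CPM in PE/LPS pieces against 3.16 to 4.85 CPM in controls, was higher by 0.79, and SHISA3, at 1.37 to 3.55 against 0.696 to 1.24 CPM, by 1.39.

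TLR9 was a gene of low level. It had 1.14, 1.82 and 3.22 CPM as the lowest, median and highest PE/LPS piece, and 0.506, 0.790, 0.336 and 0.926 CPM in controls 7, 9, 10 and 18. No control reached the lowest PE/LPS piece, that of sheep 2, after TMM scaling, whereas without it the groups overlapped, and the log2 fold change was 1.67 ± 0.58 (SE), with 2.16 in the plain codes and 1.67 against the LC controls. GABRB2, a subunit of the GABA-A receptor, ranged from 0.817 to 3.57 CPM in PE/LPS pieces and from 0 to 0.664 CPM in controls, a log2 fold change of 2.36. ADAMTS20, a secreted metalloproteinase, was at 1.01 to 5.85 CPM in PE/LPS pieces and 0 to 0.860 CPM in controls, with a log2 fold change of 2.52, and its groups overlapped without TMM scaling. At such levels each value rests on few reads.

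Among genes with a mean of 1 CPM or more, 4 others had the smallest p on the higher side without full separation. FREM1, a matrix protein of epithelial basement membranes, had a median of 3.30 CPM in PE/LPS pieces (1.58 to 6.26), against 1.08, 0.621, 1.10 and 1.94 CPM in controls 7, 9, 10 and 18. All but the PE/LPS pieces of sheep 1 and 15 exceeded every control, and the log2 fold change was 1.72 ± 0.54 (SE). PTGFR, the receptor for prostaglandin F2-alpha, had a median of 41.5 CPM in PE/LPS pieces (15.5 to 58.5), against 19.8, 15.9, 10.9 and 31.2 CPM, and a log2 fold change of 1.11 ± 0.37. The lowest PE/LPS piece for PTGFR was that of sheep 11, and the value without longer codes was 1.18. RAB21, a small GTPase of early endosomes, was at 31.5 to 52 CPM in PE/LPS pieces and 22.3 to 35.5 CPM in controls, with a log2 fold change of 0.68. ZNF438, a zinc finger protein, was higher by 1.20, and by 0.57 in the plain codes, since its highest values were in longer-code pieces, up to 19.5 CPM in sheep 8.

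On the lower side no gene with a symbol among the 8 of smallest p separated the groups. BCO2, the mitochondrial enzyme that cuts carotenoids, had 2.89, 7.29 and 16.0 CPM as the lowest, median and highest PE/LPS piece, against 17.2, 24, 24.9 and 12.1 CPM in controls 7, 9, 10 and 18. In 5 of 7 PE/LPS pieces BCO2 was below all controls, and only control 18 lay within the PE/LPS range. The log2 fold change of BCO2 was −1.30 ± 0.43 (SE), and it stayed between −1.58 and −1.15 when any 1 sheep was left out. PRXL2A, a peroxiredoxin-like protein, had a median of 20.9 CPM in PE/LPS pieces (16.4 to 48.6), against 81.1, 90.4, 39 and 32.2 CPM. Its 2 high controls are the RA ones, and the log2 fold change was −1.12 with all controls and −0.36 with the LC controls alone. S100B, a calcium-binding protein of Schwann and other glial cells, was at 1.21 to 4.46 CPM in PE/LPS pieces and 3.29 to 10.0 CPM in controls, with a log2 fold change of −1.28.

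EPS8L3, a relative of the EGF receptor substrate EPS8, had a median of 0.956 CPM in PE/LPS pieces (0.254 to 1.62), against 2.24, 0.790, 9.70 and 2.23 CPM in controls 7, 9, 10 and 18. ELF3, an ETS transcription factor of epithelia, had a median of 24.3 CPM in PE/LPS pieces (16.1 to 29.9), against 19.7, 40.5, 78.7 and 35.4 CPM. In both genes control 10 was far above the other controls. Their log2 fold changes were −2.03 and −0.86, and −0.95 and −0.41 without control 10. CCDC181 was lower by −0.72, and by −0.45 without that control. MED4, a subunit of the Mediator complex, and STXBP5L, a brake on vesicle fusion, had 2 high and 2 low controls each, with log2 fold changes of −1.54 and −1.58.

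Of genes without a symbol, LOC101104893 was at 0.438 to 3.25 CPM in PE/LPS pieces, against 0 to 0.122 CPM in controls, and LOC101113032 was at 3.13 to 9.54 CPM in PE/LPS pieces, against 13.6 to 24 CPM in controls. The groups of both did not overlap. LOC121818148 had 96 counts over the 7 PE/LPS pieces and 0 in the 4 controls. Pooled over the 7 PE/LPS pieces, it was at least 22.6-fold above the 3 counts over the control group that a count of 0 allows. That floor was 0.0238 CPM, and by piece the PE/LPS values ran from 0.0298 CPM in sheep 15 to 2.79 CPM in sheep 2. With no control counts, LOC121818148 entered the test through PE/LPS pieces alone. In the plain codes it did not pass the filter, so no value is given there. LOC114110673 had 0 to 5.85 CPM in PE/LPS pieces, against 1.61, 70.1, 38.7 and 4.43 CPM in controls 7, 9, 10 and 18, and the smallest p of all genes.

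**Figure D3:**
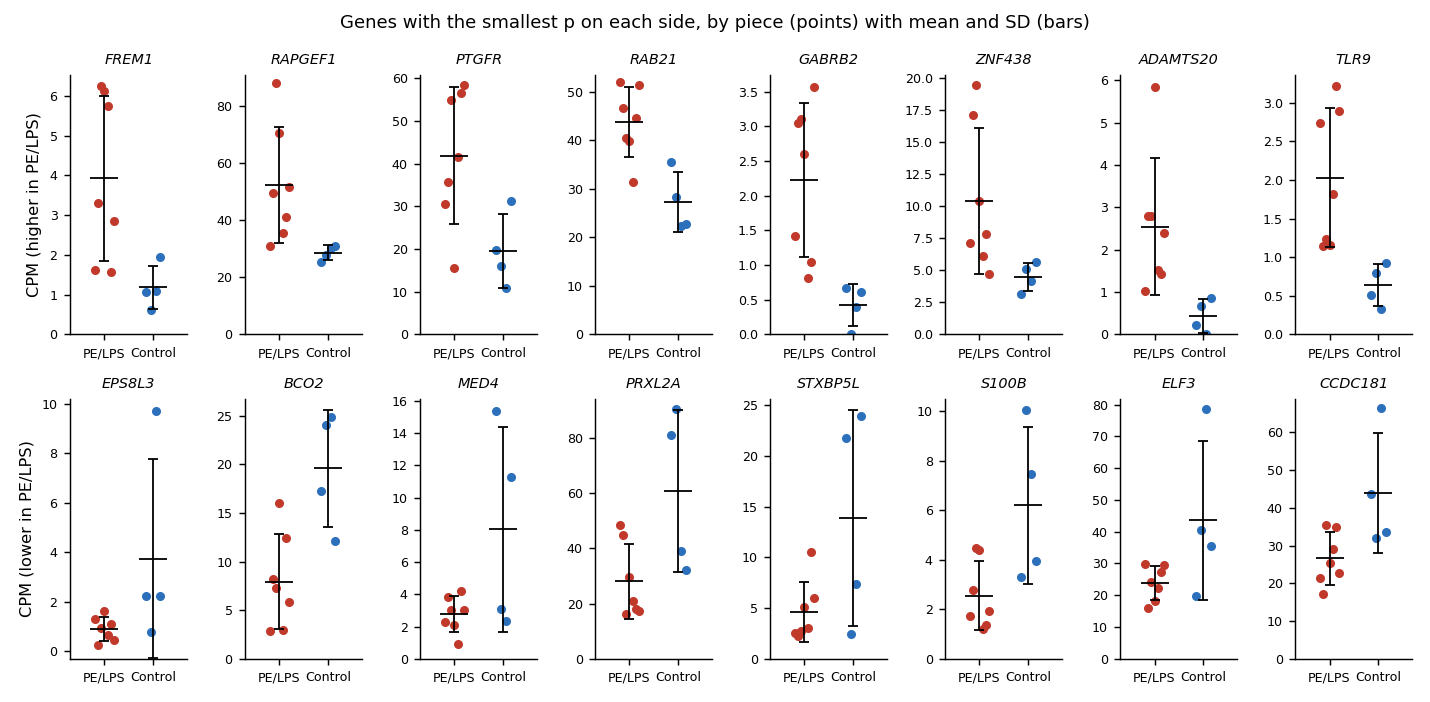
CPM by piece of the 16 genes with symbols, a mean of 1 CPM or more and the smallest p on each side, with PE/LPS on the left of each panel and control on the right. Points are pieces, bars are mean and SD, and in RAPGEF1, GABRB2, ADAMTS20 and TLR9 every PE/LPS point is above every control point after TMM scaling, which without it holds for GABRB2 alone of these 4.

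Gene lists of cell types and pathways were read against the median of all 18340 genes, 0.016, and the 52.1% of them with a positive log2 fold change. For counts at an unadjusted p under 0.05 by edgeR, the shares over all genes were 0.703% higher and 0.573% lower. Each list was chosen with earlier results of these data known, and no test was made of a list. Of 47 lists, 24 had a positive median and 23 a negative one, from −0.57 to 0.33. In 9 lists the sign of the median was the same in all 26 alternative settings. In bulk tissue, fewer cells of a type and less RNA per cell cannot be told apart.

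Interferon genes lay mostly on the higher side in PE/LPS pieces. Of 29 genes tested, 24 were positive and 5 negative, with a median of 0.23, of 0.36 against the LC controls, of 0.49 in the plain codes and of 0.13 without control 7. In this list 3 genes had an unadjusted p under 0.05 on the higher side and 0 on the lower side, against 0.703% and 0.573% of all genes. All 3 are targets of interferon gamma, the chemokines CXCL9 and CXCL11, which attract T cells through CXCR3, and IDO1, which breaks down tryptophan. Among antiviral genes, MX2 was at 0.65, RSAD2 at 0.61, IFIT1 at 0.58 and ISG15 at 0.06. IFI6, another interferon-induced gene, had the lowest fold change of the list, −0.37, with 0.14 in the plain codes. It was at 288 to 891 CPM in PE/LPS pieces and 427 to 985 CPM in controls. IFNG itself, a T cell and natural killer cell gene, was at 1.03, with an unadjusted p above 0.05 by edgeR.

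CXCL9 had 110, 177 and 930 CPM as the lowest, median and highest PE/LPS piece, and 78.5, 164, 111 and 93.0 CPM in controls 7, 9, 10 and 18. The highest piece was that of sheep 2, the next PE/LPS piece had 220 CPM, and 4 of 7 PE/LPS pieces exceeded all controls. The log2 fold change was 1.27 ± 0.56 (SE), 0.86 in the plain codes and 0.51 without sheep 2. CXCL11 had 2.10, 8.80 and 21.8 CPM in PE/LPS pieces, against 2.88, 5.93, 6.41 and 3.13 CPM in controls, again with the highest value in sheep 2. It was higher by 1.15 ± 0.50, and by 0.84 without sheep 2.

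IDO1 had 1.39, 6.85 and 19.7 CPM as the lowest, median and highest PE/LPS piece, against 2.78, 3.10, 3.26 and 2.71 CPM in controls 7, 9, 10 and 18. The controls were nearly equal, 5 PE/LPS pieces were above all of them and 2 were below all of them, so that the PE/LPS pieces spread to both sides. Its highest piece was that of sheep 15. The log2 fold change was 1.50 ± 0.64 (SE), with 2.06 in the plain codes and 1.48 against the LC controls. The summed CPM of the interferon list was 1992 to 4328 in PE/LPS pieces and 2146 to 4433 in controls.

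The acute response to lipopolysaccharide showed no such lean. Of 36 tested genes of lipopolysaccharide recognition and NF-kB, 17 were positive and 19 negative, with a median of −0.0063, and none had an unadjusted p under 0.05. TNF had 4.53, 7.03 and 17 CPM as the lowest, median and highest PE/LPS piece, against 2.09, 21, 4.15 and 8.33 CPM in controls 7, 9, 10 and 18. The controls spanned the whole PE/LPS range, and the log2 fold change was −0.027 with a 95% interval of −1.16 to 1.10. IL6 was at 0.290 to 2.95 CPM in PE/LPS pieces and 0.727 to 3.61 CPM in controls, at 0.22 (−1.16 to 1.6). IL1B was at 0 to 1.47 CPM in PE/LPS pieces and 0.336 to 1.87 CPM in controls, at −0.038 (−1.91 to 1.84).

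CXCL8 had 3.76, 8.97 and 35.6 CPM as the lowest, median and highest PE/LPS piece, against 3.26, 29.7, 12.1 and 3.06 CPM in controls 7, 9, 10 and 18. Only the PE/LPS piece of sheep 2 exceeded all controls, and the log2 fold change was 0.078 (−1.31 to 1.46). For these 4 cytokine genes the intervals reached beyond 1 in both directions, so that a difference of 1 log2 unit either way lay inside them. The members of smallest p in the list were IL1A, at 1.20, IRAK3, an inhibitor of Toll-like receptor signalling, at 0.68, and IL10, an anti-inflammatory cytokine, at −1.15. IL10 depended on control 9, which had 52.7 CPM, and it was at 0.81 without that sheep. NFKBIA, the inhibitor of NF-kB and its target, was at 364 ± 105 CPM in PE/LPS pieces and 342 ± 81.9 CPM in controls (SD, n = 7 and 4).

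Neutrophil and macrophage genes were also near the level of all genes. Of 21 neutrophil markers 11 were tested, 4 positive and 7 negative, with a median of −0.033, and the defining granule genes MPO, PRTN3 and CTSG were not among those tested. The summed CPM of the list was 312 to 731 in PE/LPS pieces and 372 to 848 in controls. CXCR2, the receptor for CXCL8, was at 3.96 to 25.3 CPM in PE/LPS pieces and 4.11 to 8.33 CPM in controls, at 0.88, with 0.28 in the plain codes. S100A9, a calprotectin subunit, was at −0.30. Of 21 macrophage and monocyte genes, 10 were positive and 11 negative, with a median of −0.0065. MARCO, the scavenger receptor of alveolar macrophages, had 958, 1340.0 and 2712 CPM in PE/LPS pieces, against 1325, 2463, 1142 and 2365 CPM in controls, a log2 fold change of −0.29.

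**Figure D4:**
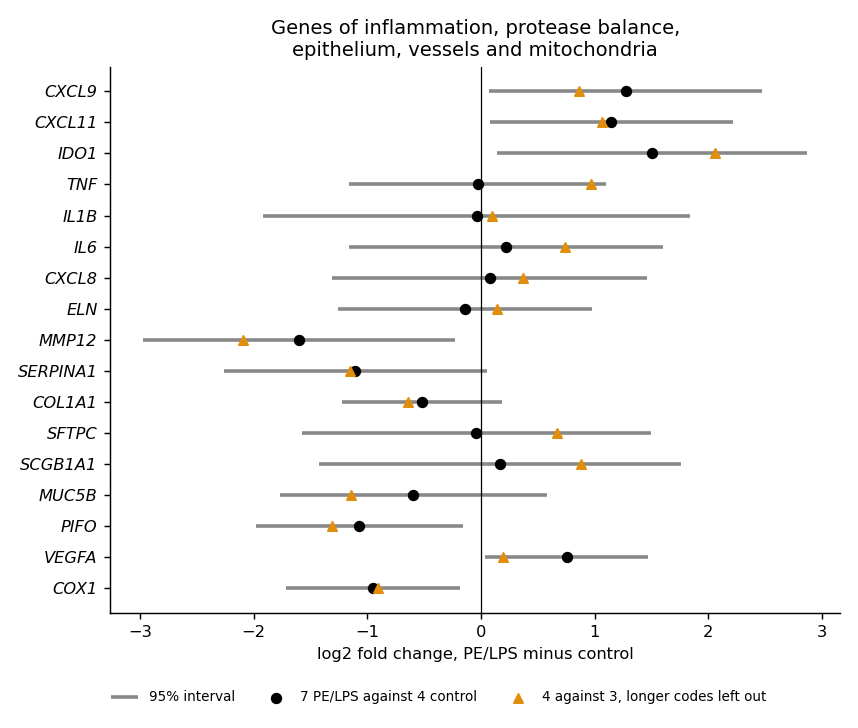
Log2 fold change of PE/LPS minus control for 17 genes, with 95% intervals from edgeR (black points and grey bars) and the value without the 4 longer-code pieces (triangles). The intervals of CXCL9, CXCL11, IDO1 and VEGFA lie above 0 and those of MMP12, PIFO and COX1 below 0 before adjustment, and those of TNF, IL1B, IL6, CXCL8 and ELN span 0.

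In the elastin and protease axis MMP12, macrophage elastase, had the smallest p, and it was lower. It had 0.766, 4.31 and 9.67 CPM as the lowest, median and highest PE/LPS piece, and 8.28, 1.81, 29.7 and 15.8 CPM in controls 7, 9, 10 and 18. Controls 10 and 18 were above every PE/LPS piece, and control 9 was near the bottom of the PE/LPS range. The log2 fold change was −1.60 ± 0.64 (SE), −2.33 against the LC controls, −2.09 in the plain codes and −0.92 without control 10. SERPINA1, alpha-1 antitrypsin, the main inhibitor of neutrophil elastase, was at 0.474 to 2.39 CPM in PE/LPS pieces and 1.30 to 4.50 CPM in controls, a low level, at −1.10 (−2.26 to 0.05).

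ELN, elastin, had 10.8, 43.8 and 75.0 CPM as the lowest, median and highest PE/LPS piece, against 30.3, 19, 35.9 and 96.7 CPM in controls 7, 9, 10 and 18. The highest of all pieces was control 18, and the log2 fold change was −0.14 (−1.26 to 0.98), with 0.14 in the plain codes and 0.54 without control 18. Of 21 elastic fibre genes, 7 were positive and 14 negative, with a median of −0.11, and of 0.069 without control 18. MFAP5, a microfibril glycoprotein, was the member of smallest p, at 5.67 to 21.4 CPM in PE/LPS pieces and 8.47 to 41.4 CPM in controls. It was lower by −0.96, by −1.39 in the plain codes and by −0.58 without control 7. In 1 of 7 PE/LPS pieces MFAP5 was below all controls.

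Of 30 proteases tested, 17 were positive and 13 negative, with a median of 0.042 that was −0.021 without control 10. An unadjusted p under 0.05 was found in 2 on the higher side and 1, MMP12, on the lower side. Over all genes these shares were 0.703% and 0.573%. The 2 on the higher side were CTSL, lysosomal cathepsin L, and ADAM17, the sheddase that releases TNF from the cell surface. CTSL had 25.1, 45.1 and 82.9 CPM as the lowest, median and highest PE/LPS piece, against 45.2, 16.0, 15.9 and 22 CPM in controls 7, 9, 10 and 18. All PE/LPS pieces were above controls 9, 10 and 18, and 3 of them were above control 7 as well, and the log2 fold change was 0.86 ± 0.37 (SE). ADAM17 was at 47.4 to 75.0 CPM in PE/LPS pieces and 36.7 to 51.4 CPM in controls, at 0.50, with 5 of 7 pieces above all controls. Of 23 protease inhibitors, 8 were positive and 15 negative, with a median of −0.12, of 0.061 in the plain codes and of −0.056 without control 10. TIMP4, a tissue inhibitor of metalloproteinases, was higher by 0.69 with 5 of 7 PE/LPS pieces above all controls.

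Collagen genes lay mostly on the lower side, with a median near 0 without 1 control. Of 25 fibrillar collagen and matrix genes, 7 were positive and 18 negative, with a median of −0.14, of −0.12 against the LC controls and of −0.33 in the plain codes, and none had an unadjusted p under 0.05. Without control 7 the collagen median was 0.0059. Of 18 fibroblast genes, 7 were positive and 11 negative, with a median of −0.048, and of 0.029 without control 7. COL1A1, the chain of type I collagen, had 76.4, 147 and 191 CPM as the lowest, median and highest PE/LPS piece, against 264, 79.8, 233 and 229 CPM in controls 7, 9, 10 and 18. In COL1A1, 6 PE/LPS pieces lay between control 9 and the other 3 controls, and the log2 fold change was −0.52 (−1.22 to 0.19). COL3A1, type III collagen, was at −0.63, and COL5A3 at −1.05. CCDC80, a secreted matrix protein of fibroblasts, had 102, 136 and 341 CPM in PE/LPS pieces, against 445, 227, 187 and 248 CPM in controls. All PE/LPS pieces but that of sheep 1 were below every control, and the log2 fold change was −0.79 ± 0.35 (SE), with −1.10 without sheep 1. The CCDC80 value was −0.46 against the LC controls and −0.47 without control 7.

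Airway epithelial genes lay mostly on the lower side in PE/LPS pieces, and much of this turned on 1 control. Of 24 motile cilium genes tested, 2 were positive and 22 negative, with a median of −0.31, of −0.70 against the LC controls and of −0.35 in the plain codes. In 16 of these 24 genes the highest of all 11 pieces was control 10, and without that sheep the median was −0.049. The summed CPM of the list was 413 to 1133 in PE/LPS pieces and 679, 821, 823 and 1431 in controls 9, 18, 7 and 10. PIFO, a protein of the ciliary base, had a median of 8.65 CPM in PE/LPS pieces (4.53 to 13.9), against 9.45, 9.20, 38.7 and 15.5 CPM in controls 7, 9, 10 and 18. It was lower by −1.07 ± 0.43 (SE), and by −0.39 without control 10. CCDC113, a protein of the ciliary axoneme, was lower by −1.17, and by −0.84 without control 10. FOXJ1, the transcription factor of ciliated cells, was at 0.04.

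The 18 secretory and mucous genes had a median of −0.57, with 8 positive and 10 negative, and of 0.37 without control 10. The 10 basal and squamous genes had a median of −0.25, and of 0.37 without control 10, and control 10 was the highest piece in 8 of the 18 and 5 of the 10. MUC5B, a gel-forming airway mucin, had a median of 6.21 CPM in PE/LPS pieces (2.32 to 17.7), against 7.53, 6.49, 33.3 and 5.91 CPM in controls 7, 9, 10 and 18. Its log2 fold change was −0.59, and 0.41 without control 10. SCGB1A1, the club cell secretoglobin, ran from 18.3 through a median of 164 to 705 CPM in PE/LPS pieces, against 78.2, 256, 166 and 366 CPM, at 0.17 (−1.42 to 1.76). MSLN, mesothelin, a surface protein that marks mesothelium, was lower by −2.13, and by −0.25 without control 10, which had 161 CPM against at most 26.3 CPM in any other piece. The part of airway content of the control 10 piece in these folds was not tested.

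SFTPC spanned a wider range among the 7 PE/LPS pieces than among the 4 controls. It had 2766, 19828 and 108083 CPM as the lowest, median and highest PE/LPS piece, against 44918, 47054, 19324 and 32870.0 CPM in controls 7, 9, 10 and 18. The PE/LPS pieces extended beyond the controls on both sides, with sheep 8 lowest and sheep 1 highest, and the log2 fold change was −0.040 (−1.57 to 1.49). The summed CPM of the alveolar type 2 list, much of it SFTPC, was 6154 to 123963 in PE/LPS pieces and 25319 to 56708 in controls. By gene, 11 of 15 were positive with a median of 0.18, of 0.42 in the plain codes and of 0.094 without PE/LPS sheep 1, and none had an unadjusted p under 0.05. SLC39A8, a zinc and manganese transporter, was the member of smallest p, at 0.55, and NKX2-1, the transcription factor of lung epithelium, was at 0.27. The 16 alveolar type 1 genes were split evenly, with a median of 0.040, and their range of fold changes was narrow, −0.19 to 0.39.

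Vessel genes leaned higher, with fewer of them positive against the LC controls. Of 22 endothelial genes, 17 were positive and 5 negative, with a median of 0.14, and of 21 genes of VEGF and endothelin signalling 17 were positive and 4 negative, with a median of 0.11. Against the LC controls, 12 of the 22 and 13 of the 21 were positive, with medians of 0.040 and 0.13. Both medians kept their sign in all 26 alternative settings, but the endothelial one was 0.0030 without PE/LPS sheep 14 and 0.40 without control 18, and the other 0.36 without control 18. VEGFA, the main growth factor for endothelium, had 79.0, 176 and 263 CPM as the lowest, median and highest PE/LPS piece, against 106, 100, 104 and 106 CPM in controls 7, 9, 10 and 18. All but 1 of the PE/LPS pieces were above the controls, which were nearly equal, and that of sheep 15 was below them. The log2 fold change was 0.75 ± 0.34 (SE), and 0.19 in the plain codes, since the highest values were in longer-code pieces. TEK, the angiopoietin receptor, was at 0.49, and 0.058 in the plain codes, and KDR, the VEGF receptor, at 0.35 and 0.039. PECAM1, which marks endothelium as a whole, was at 404 to 590 CPM in PE/LPS pieces and 354 to 458 CPM in controls, at 0.24.

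Of 30 hypoxia and glycolysis genes, 12 were positive and 18 negative, with a median of −0.027, and VEGFA was the only one with an unadjusted p under 0.05 on the higher side. PFKM was the only one on the lower side. It had 2.41, 4.18 and 4.61 CPM as the lowest, median and highest PE/LPS piece, against 6.07, 5.14, 5.95 and 9.28 CPM in controls 7, 9, 10 and 18. The groups did not overlap after TMM scaling but did without it, the log2 fold change was −0.75 ± 0.31 (SE), and the value in the plain codes was −0.73.

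B cell genes leaned higher, 16 of 20 positive with a median of 0.25 and of 0.37 in the plain codes, of 0.11 without control 10 and of 0.46 without control 18, and none with an unadjusted p under 0.05. CD22, an inhibitory B cell receptor, was at 2.92 to 15.6 CPM in PE/LPS pieces and 3.33 to 7.87 CPM in controls, at 0.76. PAX5, the B cell transcription factor, was at 0.68, and JCHAIN, the joining chain that plasma cells make, at −0.041. Of 19 T and cytotoxic lymphocyte genes 12 were positive, with a median of 0.033, and of 0.33 against the LC controls. KLRK1, an activating receptor of natural killer and cytotoxic T cells, was the member of smallest p, at 0.46. C6, a component of the complement attack complex, was the only one of 21 complement genes with an unadjusted p under 0.05. It was at 0.634 to 4.77 CPM in PE/LPS pieces and 0.309 to 1.23 CPM in controls, at 1.49.

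The mitochondrial genome gave the only call in any setting. COX1, subunit 1 of cytochrome c oxidase, had 624, 1030.2 and 1878 CPM as the lowest, median and highest PE/LPS piece, against 3028, 2535, 1778 and 2384 CPM in controls 7, 9, 10 and 18. In 6 of 7 PE/LPS pieces COX1 was below all controls, and the highest PE/LPS piece, of sheep 15, was above control 10 alone. Its log2 fold change was −0.95 ± 0.36 (SE) by edgeR, between −1.08 and −0.83 when any 1 sheep was left out, −0.74 against the LC controls and −0.91 in the plain codes. On the 11 pieces, edgeR gave COX1 an unadjusted p of 0.0187 and an adjusted p of 0.999935. All 33 libraries also entered limma voom with the piece as a random block. There COX1 was lower by −1.07 with a Benjamini-Hochberg adjusted p of 0.00732, and no other gene passed. That fit used 1 correlation between the libraries of a piece for all genes. How closely the libraries of a piece agreed for COX1 itself was not tested. Of the 11 mitochondrial messenger RNAs tested, 10 were negative and 1 positive, with a median of −0.35 that was negative in all 26 alternative settings and −0.16 without control 7. The next after COX1 were ATP8, at −0.53, and ATP6, at −0.50, and CYTB was at 0.17. The share of all counts on the mitochondrial genome was 1.02 ± 0.321% in PE/LPS pieces and 1.34 ± 0.412% in controls (SD, n = 7 and 4; exact two-sided permutation p = 0.188, adjusted 0.741).

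Nuclear genes of oxidative phosphorylation and of the ribosome did not keep a direction. Of 26 oxidative phosphorylation genes, 20 were negative, with a median of −0.20, and the median was 0.011 against the LC controls and 0.076 in the plain codes. Of 51 cytosolic ribosomal protein genes, 41 were negative, with a median of −0.29, and the median was 0.14 against the LC controls and 0.10 without control 9, whose ribosomal protein share of 15.3% was the highest of all pieces. RPL36 had the smallest adjusted p in the plain codes, 0.0907 by edgeR with Benjamini-Hochberg adjustment, at −2.71 there and −1.17 with all pieces. Of 27 antioxidant genes, 11 were positive and 16 negative, and GPX2, an epithelial glutathione peroxidase, was lower by −0.75 with 6 of 7 PE/LPS pieces below all controls, and by −0.39 without control 10.

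Of 30 immediate early genes, 25 were positive and 5 negative, with a median of 0.33, the highest of all lists, and none had an unadjusted p under 0.05. EGR1, a zinc finger factor induced within minutes of many stimuli, was at 1.81, FOS at 1.31, EGR3 at 1.11 and IER5 at 0.98, and FOSL1 at −1.22. IER5 had its highest value in sheep 8, 215 CPM, against a PE/LPS median of 48.7 CPM and 27.6 to 87.5 CPM in controls. The smallest unadjusted p of the list by edgeR was 0.0909, that of IER5, so EGR1, FOS and EGR3 had larger p values. In 16 of the 30 genes the highest of all 11 pieces was PE/LPS sheep 8. The median of the list was 0.080 without PE/LPS sheep 8 and 0.53 without control 9. Of 22 heat shock chaperones, 5 were positive and 17 negative, with a median of −0.14 that was negative in all 26 alternative settings and −0.051 without control 10, and their fold changes ran from −0.49 to 0.45.

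Glucocorticoid targets were higher in 10 of 14 cases, with a median of 0.16. ZBTB16, a transcription factor that glucocorticoids induce, had 136, 194 and 231 CPM as the lowest, median and highest PE/LPS piece, against 117, 101, 124 and 181 CPM in controls 7, 9, 10 and 18. In ZBTB16, 5 of 7 PE/LPS pieces were above all controls, and the log2 fold change was 0.56 ± 0.25 (SE), with 0.53 in the plain codes. FKBP5, a co-chaperone of the glucocorticoid receptor and its target, was at 71.0 to 161 CPM in PE/LPS pieces and 44.3 to 79.1 CPM in controls, at 0.59. TSC22D3, another target, was at 0.033. The median of the list was −0.025 without PE/LPS sheep 8 and 0.43 without control 9.

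**Figure D5:**
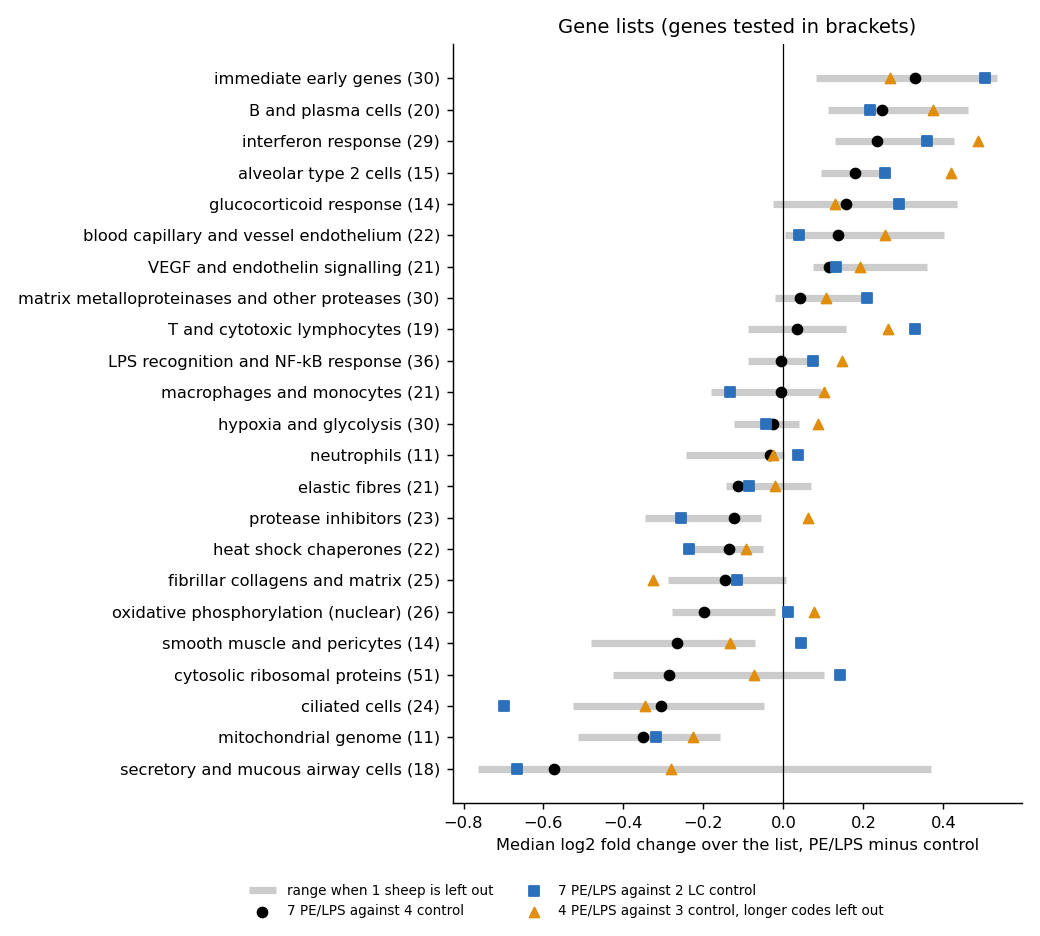
Median log2 fold change of PE/LPS minus control over the tested genes of 23 lists. Black points use all 11 pieces, squares the 2 LC controls, triangles the plain codes, and grey bars the range when any 1 sheep is left out. The interferon, immediate early and B cell medians are positive and the ciliated and mitochondrial ones negative in each of these, and the secretory median runs from −0.76 to 0.37.

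Among lists of tissues that a lung piece could also hold, sums were low for muscle, cartilage and nerve. The adipose list summed to 56.3 to 128 CPM in PE/LPS pieces and 39.6 to 93.2 CPM in controls. The mesothelium list summed to 231 to 783 CPM in PE/LPS pieces and 549 to 695 CPM in controls. The summed CPM of the striated and heart muscle list was 14.6 to 37.4 in PE/LPS pieces and 15.1 to 37.6 in controls, and that of the cartilage list was 11.5 to 38.5 and 7.28 to 53.2. The neural and neuroendocrine list summed to 9.24 to 15.7 CPM in PE/LPS pieces and 14.4 to 17.4 CPM in controls. Its gene GCG, the glucagon precursor, had 102 counts over 5 of the 7 PE/LPS pieces, 0 in the other 2 and 0 in all 4 controls. Pooled over the 7 PE/LPS pieces and set against 3 counts over the control group, GCG was at least 24-fold higher. By piece, its PE/LPS median was 0.279 CPM and its highest value 2.32 CPM in sheep 11. With no control counts, GCG entered the test through PE/LPS pieces alone. In the plain codes it did not pass the filter, so no value is given there.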

How the data were processed

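The deposited file is a table of whole-number counts per gene and library, made by the authors. Tools listed in the submitters' processing notes are STAR 2.7.10b, featureCounts, Subread 1.6.3, Trimmomatic 0.39, FastQC 0.11.9 and edgeR 3.40.2. Sources used here state no genome build, strand setting or molecular identifiers, so reads of overlapping or antisense genes and of near-identical copies may be shared. Of 30186 genes, 2 have no numbers and are not reported here. Names for 25922 identifiers (85.9%) matched RefSeq's table of ARS-UI_Ramb_v3.0.

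Library totals were 115109 and otherwise 2777537 to 16215732. The 3 libraries of a piece were summed. Genes passed edgeR's filter (10 counts, 15 in total), TMM scaling and the quasi-likelihood test (edgeR 4.0.16 in R 4.3.3), with Benjamini-Hochberg adjustment over 18340 genes and treatment as the only term. CPM are TMM-scaled. DESeq2 1.42.0, limma 3.58.1, other filters, scalings and sets of pieces were alternatives. Named genes are the 8 of smallest p per side with a symbol and a mean of at least 1 CPM, 2 per side without symbol, 13 fixed genes, and up to 3 of smallest p plus the highest in each list. Others, among them EGR1, FOS, EGR3, IFNG, MX2, RSAD2, IFIT1, ISG15, FOXJ1, CYTB and several non-overlapping genes, were named outside these rules. Members and lists were chosen with earlier results of these data known. Intervals across animals also hold technical spread, and a floor of 3 counts covers counting error only.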

Additional observations from a re-analysis of the deposited data

Results flagged for a closer look

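A piece was looked at again where its gap to the nearest other piece of its group was a large part of the group's range on the log2 CPM scale (over 0.829 of it for 4 controls, over 0.568 for 7 PE/LPS pieces). Chance gives about 1 such case in 20 groups, and 14 arose in 196 groups of values examined.

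Among PE/LPS pieces, sheep 2 had 930 CPM of CXCL9 against at most 220 CPM in the others (gap 0.677 of the range), 2.66 CPM of B4GALT4 against at least 6.66 CPM (0.712) and 0.380 CPM of MSLN against at least 4.58 CPM (0.573). The piece of sheep 1 had 341 CPM of CCDC80 against at most 155 CPM (0.656), that of sheep 8 had 161 CPM of FKBP5 against at most 99.9 CPM (0.585), and that of sheep 16 had 4.73 CPM of COL5A3 against at most 1.82 CPM (0.593). In sheep 11, IL1B was at 0 against at least 0.355 CPM (0.584), and 16473 genes reached 1 CPM (0.653).

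Among controls, sheep 9 had 24 CPM of LOC101113032 (0.910), 79.8 CPM of COL1A1 against at least 229 CPM (0.880), 1.24 CPM of SHISA3 (0.874) and 16799 genes with at least 10 counts (0.840). Control 10 had 33.3 CPM of MUC5B against at most 7.53 CPM (0.861), and control 7 had 1.99 CPM of IRAK3 against at least 3.05 CPM (0.928).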

How the results depend on the processing

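No gene passed an adjusted p of 0.05 in any of 26 alternatives to the edgeR fit, except 1 lower gene, COX1, with 33 libraries in voom and the piece as a random block. The unadjusted counts depended more on the setting than the calls did. Genes higher in PE/LPS pieces at an unadjusted p under 0.05 numbered 129 in the fit reported. They numbered 461 with no low-count filter, 75 with 50 counts in 4 pieces required, 244 by DESeq2 and 61 in library 1 alone. A fit of 3 groups gave 203. The sample titles also end in S numbers, whose meaning the labels do not give. Without the pieces with S numbers above 45, those of PE/LPS sheep 2 and 8, 77 genes were higher. Genes lower, 105 in the fit reported, numbered 527 with no filter, 211 by voom, 291 in the 33-library fit and 235 without longer codes. Leaving out 1 sheep at a time gave 71 (without PE/LPS sheep 8) to 200 (without control 9) higher genes and 69 (without control 10) to 152 (without control 18) lower genes. Without PE/LPS sheep 11 there were 76 higher genes. Filters change the number of genes tested, and leaving out pieces the number of animals; the cause of the other shifts was not tested.

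Of 2361 fold changes of the 92 genes under these alternatives, 116 moved by more than their standard error and 1 (COX1) passed the test. Among the 45 genes with an unadjusted p under 0.05, 1 value had the opposite sign, KIFC1 in library 3 alone (0.028). Among the other 47 genes, 21, such as IL10, TNF and ELN, had the opposite sign in at least 1 setting. Of 1222 list medians, 1194 moved by less than the SD between PE/LPS pieces. No paired analysis was possible because PE/LPS and control pieces come from different sheep and share no sheep number. With 4 controls, the 95% interval reached 0.855 to either side at the median gene.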
